A study of Homo sapiens with 4 samples.

Results

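The effect of Sonazoid was examined across both states of ultrasound exposure in U937, an established cell line of human myelomonocytic origin that the labels call lymphoma. The 2 arrays of cells that received Sonazoid, namely Sonazoid plus ultrasound and Sonazoid only, were set against the 2 arrays without it, namely ultrasound only and control. These 4 arrays are all 4 of the study. Sonazoid was given at 0.05%, ultrasound for 1 min at 0.3 W/cm2, and the 3 treated cultures were then kept for 3 h; for the control cells no such time is stated. Each treatment was hybridised once, to an Affymetrix Human Genome U133 Plus 2.0 array, and nothing in the labels tells of replicate cultures.

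Sonazoid is a clinical ultrasound contrast agent made of perfluorobutane microbubbles in a phospholipid shell rich in phosphatidylserine. Such bubbles oscillate or collapse in a sound field, and tissue macrophages take them up. The comparison therefore asks which transcripts differed whenever the bubbles were present, whether or not the cells were also sonicated.

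Values are probe set intensities scaled so that the arrays share 1 trimmed mean, and each gene is given by its brightest probe set. Signals under 23.8, the median of all scaled values, were raised to that floor, and the difference of the sides is the mean log2 signal with Sonazoid minus the mean without it. Of 19775 genes, 12363 exceeded the floor on 2 arrays or more, which a gene needs in order to separate the sides. The sides were said not to overlap where both arrays with Sonazoid lay beyond both arrays without it. A gene whose difference with ultrasound exceeds its difference with Sonazoid cannot meet that rule.

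Most markers of the myeloid progenitor list were above the floor on 2 arrays or more: 12 of 15 members were tested, against 12363 of all 19775 genes. The granule proteases ELANE and CTSG, picked after their values were seen, had signals of 7974 to 10586 and 11470 to 13732. MPO was above the floor on 1 array only. The T cell genes CD3D and CD8A and the endothelial genes VWF and CDH5 lay under the floor on every array. Other markers of those lists were present: NKG7 stood between 2771 and 3197 and PECAM1, which myeloid cells also carry, between 648 and 810. Of the T and NK cell list 3 of 11 members were tested, and of the fibroblast and endothelial list 4 of 10. Of the B cell list 4 of 8 were tested, and their signals summed to between 209 and 281 per array.

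The differences with Sonazoid were small. Of the genes tested, 1934 (15.6%) were higher on both Sonazoid arrays and 2230 (18.0%) were lower on both. If the order of the arrays were random, a share of about 0.333 of genes would separate the sides, both directions together. The shares of higher and lower genes together were close to that. Lack of overlap alone therefore does not mark a gene as differing with Sonazoid. At 1.5-fold or more, 162 (1.31%) were higher and 219 (1.77%) lower, and at 2-fold or more 20 (0.162%) and 30 (0.243%). Of the genes without overlap 46.4% were higher, a share that was 87.0% with the values as deposited, where the median of all genes moved to 0.14 (log2), against -0.0069 after scaling. The same rule applied to ultrasound, the arrays with it against those without, gave 2628 higher (21.3%) and 2490 lower (20.1%). At 1.5-fold these were 384 (3.11%) and 177 (1.43%), and at 2-fold 93 (0.752%) and 14 (0.113%).

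For a single gene, 2 arrays against 2 allow no two-sided exact permutation p below 0.333. A limma fit across all genes, with Sonazoid and ultrasound as additive terms, takes the departure from additivity as its error. It called 0 genes for Sonazoid (0.0%) at an adjusted p of 0.05, with a smallest adjusted p of 0.72, while 796 genes (6.44%) had an unadjusted p under 0.05. For ultrasound the fit also called 0 (0.0%), with 1174 (9.5%) at an unadjusted p under 0.05. When limma let the error depend on signal, 8 genes were called higher with Sonazoid (0.0647%) and 17 lower (0.138%), against 409 called for ultrasound (3.31%). This second fit is an alternative to the first, and its p-values assume that the 2 treatments add on the log2 scale.

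The Sonazoid difference was measured in separate pairs of arrays, once in sonicated cells and once in unsonicated cells. Over the 12363 genes the values correlated weakly, with a Pearson r of 0.074 and a Spearman rho of 0.10, and 54.4% had the same sign. The correlation was 0.31 among the 3091 genes with the highest mean signal (above 878) and 0.045 among the 3091 with the lowest. These coefficients run across genes, which share the arrays and are not replicates. The corresponding pair for ultrasound had an r of 0.25 over all genes.

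**Figure D1:**
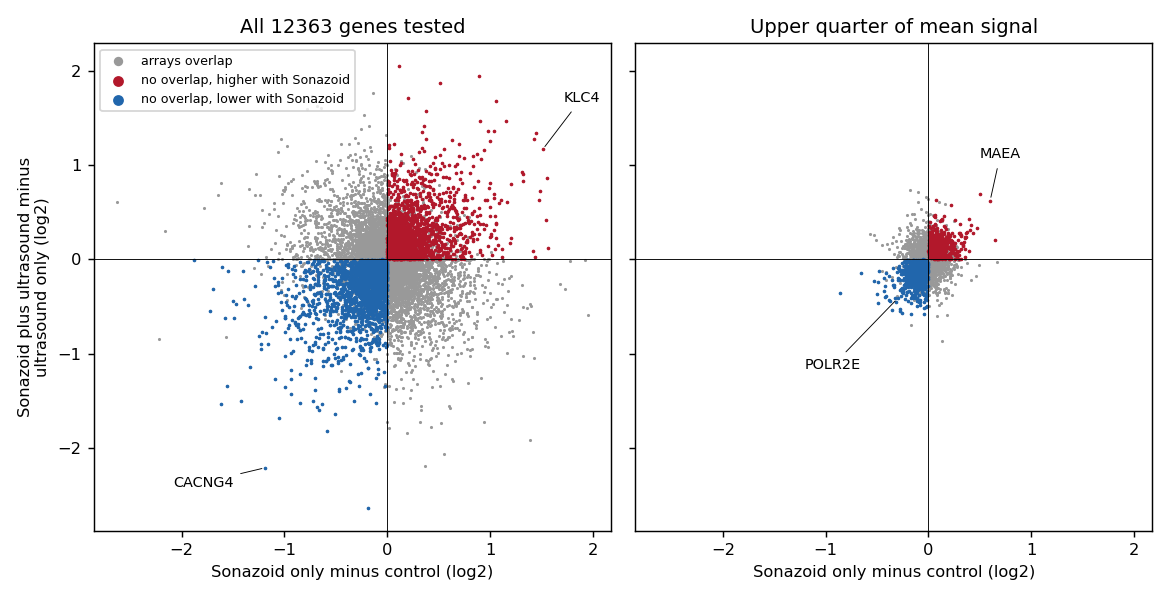
Log2 difference with Sonazoid in sonicated cells (vertical) against unsonicated cells (horizontal), 1 point per gene, for all 12363 genes and for the 3091 brightest. Points without overlap of the sides are coloured, and the cloud of all genes is nearly round (r = 0.074) while that of the bright genes is drawn out along the diagonal (r = 0.31).

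Spread followed signal. The SD of the difference over genes was 0.37 among the dimmest 3091 genes (mean signal 13.6 to 68.1), 0.25 and 0.16 in the next groups of equal size, and 0.12 among the brightest. Of the 162 higher genes at 1.5-fold 130 were in the dimmest group, and of the 219 lower genes 174. A second probe set above the floor was present for 39 of those 162, and it went the same way for 18. It did so for 27 of 53 of the lower genes. These shares, 46.2% and 50.9%, were close to those over all genes with a second probe set, where it was higher for 49.3% and lower for 50.7%. Over all 6043 genes with a second probe set, the 2 differences correlated at 0.11, and at 0.25 among the brightest. A large difference in a dim gene is thus a value from a single probe set in most cases below.

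Among bright genes, those whose mean signal was in the upper 25% of the genes tested, MAEA had the largest positive difference, with MALAT1, whose probe sets disagree, close behind. It encodes a subunit of the CTLH ubiquitin ligase complex. Its signals were 1949 with Sonazoid plus ultrasound and 1783 with Sonazoid only, against 1265 with ultrasound only and 1176 in control. The log2 difference was 0.61 (SE 0.11 in the additive fit), 1.53-fold, with 0.62 in sonicated and 0.60 in unsonicated cells. The adjusted p was 0.72 in the additive limma fit and 0.00074 when limma's error depended on signal. No other probe set of MAEA was above the floor, and MAEA was not tested with gene-specific probe sets.

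The 9 next bright genes chosen the same way were 1.22-fold to 1.34-fold higher. RCBTB2 was 1.34-fold higher, at 1396 and 1458 with Sonazoid against 1213 and 934 without it. SLC25A40, a mitochondrial carrier linked to glutathione import, read 1248 and 1096 against 927 and 834. OMA1, a stress-activated protease of the inner mitochondrial membrane, read 1108 and 1217 against 912 and 900. In each pair the sonicated culture is given first. The ETS transcription factor ELF1 (1.27-fold), the atypical E2F repressor E2F8 (1.27-fold) and LIPT1, which attaches lipoic acid to mitochondrial enzymes (1.25-fold), followed. NOC3L, a nucleolar factor of ribosome assembly, was 1.24-fold higher, PNRC2, which links mRNA decay to decapping, 1.23-fold, and the zinc finger protein ZNF121 1.22-fold. None of these reached an adjusted p under 0.05 in either limma fit.

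Among bright genes that were lower and had no opposing probe set, PSMD3 had the largest difference. PSMD3, a subunit of the proteasome's regulatory particle, read 1078 with Sonazoid plus ultrasound and 925 with Sonazoid only, against 1395 with ultrasound only and 1310 in control, a log2 difference of -0.44 (SE 0.11). YWHAE, the signal adaptor 14-3-3 epsilon, read 1101 and 1160 with Sonazoid against 1495 and 1507 without it, and its second probe set had a log2 difference of -0.48. PPP1R18, an actin-capping partner of protein phosphatase 1, read 1489 and 1445 against 2204 and 1723. POLR2E, a subunit common to the nuclear RNA polymerases, read 3974 and 3870 against 5295 and 4762, and its second probe set was lower by less, at -0.18. With the error dependent on signal, limma gave these 4 genes adjusted p-values of 0.037, 0.040, 0.040 and 0.013, taking PSMD3, YWHAE, PPP1R18 and POLR2E in turn. The rest were not called in either fit. They were PDRG1 (log2 -0.40), the phosphatase 2A scaffold PPP2R1A (-0.40), the p38 substrate kinase MAPKAPK2 (-0.38), ABHD14B (-0.37), the nucleoporin POM121C (-0.37) and SKI, a repressor of TGF-beta signalling (-0.36).

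**Figure D2:**
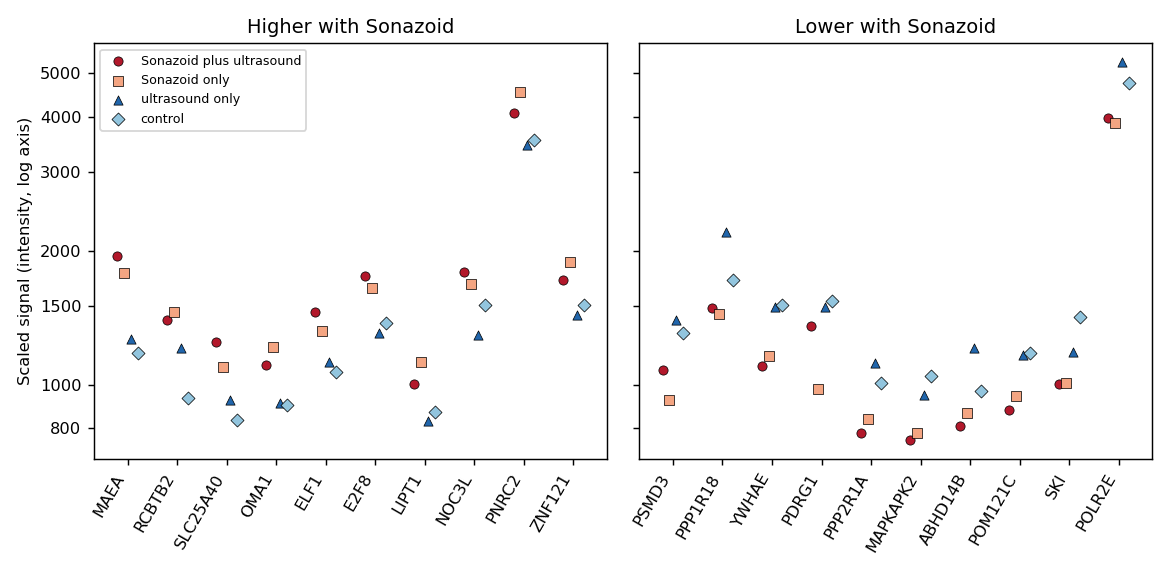
Scaled signal (log axis) of the 10 bright genes with the greatest positive and the 10 with the greatest negative difference among those with no opposing probe set, with Sonazoid plus ultrasound, Sonazoid only, ultrasound only and control drawn left to right for each gene. MAEA lies at 1783 or more with Sonazoid and at 1265 or less without it; in the other genes the gap between the sides is narrower.

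The fit with the signal-dependent error named further genes, which lie outside the naming rule and were taken from that list of 25. MALAT1, an abundant nuclear noncoding RNA, read 1510 and 1499 with Sonazoid against 929 and 1058 without it, a log2 difference of 0.60 (adjusted p = 0.0015 in limma). Of its 11 other probe sets above the floor 6 went the same way and 5 the opposite way, from -1.27 to 0.93, so its direction depends on the probe set. RNASET2, a lysosomal ribonuclease, was 1.32-fold higher, with 3 of 4 other probe sets opposite. SLC25A37, the iron importer mitoferrin-1, was 1.31-fold higher and 7 of its 9 other probe sets agreed in sign. TBC1D4, a Rab GTPase-activating protein of glucose transporter traffic, was 1.51-fold higher. MINDY3, a deubiquitinase, was 2.31-fold higher on 1 probe set, and -0.096 (log2) on its other.

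SF3A1, a component of the U2 spliceosomal particle, read 1132 and 1311 with Sonazoid against 1448 and 2382 without it, and the control array was the highest by far. Its difference was -0.61, with 2 of 3 other probe sets lower too. HLA-G and HLA-F, class I histocompatibility genes, were 1.36-fold and 1.39-fold lower, on probe sets that may bind transcripts of closely related class I genes. HCFC1, a chromatin cofactor, was 1.47-fold lower, with both other probe sets opposite in sign. The tubulin gene TUBA1B read 16866 and 15388 with Sonazoid, against 19318 and 18898 without it. Its 4 other probe sets were lower as well. TUBA1B was among the 124 genes above the 99th percentile of signal, of which 0 were higher and 86 lower without overlap. After quantile normalisation 22 genes of that class were higher and 19 lower. In all, 9 of the 14 called genes with a second probe set had the same sign on it. Over all genes with a second probe set, it was higher for 49.3% and lower for 50.7%. FAXDC2 and MT1HL1 were called although the sides overlapped. FAXDC2 read 142 with Sonazoid plus ultrasound against 256 with ultrasound only, and 30.2 with Sonazoid only against 141 in control.

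Dim genes made up the largest differences. CACNG4, an auxiliary calcium channel subunit, was the lowest, with signals of 64.0 and 94.8 with Sonazoid against 297 and 215 without it. That is 3.25-fold lower (log2 -1.70, SE 0.30), with -2.21 in sonicated and -1.18 in unsonicated cells, and an adjusted p of 0.0010 in limma with the signal-dependent error. Over the 6 other settings the log2 difference of CACNG4 ran from -1.71 to -0.57. MAPK3, the kinase ERK1, was 1.89-fold lower, at 91.9 and 57.4 against 129 and 146. SPR, an enzyme of tetrahydrobiopterin synthesis, was 2.01-fold lower, at 58.8 and 37.2 against 119 and 74.1. Others were PIGQ, of glycosylphosphatidylinositol anchor synthesis (2.12-fold), LOC100652768 (2.08-fold), XAB2, a splicing and repair factor (2.04-fold), and LOC101926984 (2.04-fold). The repressor BCL6B, YPEL3, C19orf47, the cofilin kinase TESK2 and the chondroitin synthase CHPF were between 1.89-fold and 1.94-fold lower. YPEL3 barely separated the sides, with 86.0 and 28.3 with Sonazoid against 86.4 and 104 without it. That separation was lost with the values as deposited.

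LRRC43, a leucine-rich repeat protein gene, gave the largest bound among the lower genes. It lay below the floor on both Sonazoid arrays and at 69.1 with ultrasound only and 73.1 in control, at least 2.98-fold lower; the average of its probe sets differed by -0.58 (log2). CLBA1, a clathrin-binding protein, was at least 2.73-fold lower, the palmitoyltransferase gene ZDHHC19 at least 2.58-fold and the vasopressin receptor AVPR1B at least 2.31-fold. LRRC43 and CLBA1 had adjusted p-values of 0.024 and 0.048 in limma with the signal-dependent error. ZNF862, a zinc finger gene called in that fit, was at least 2.76-fold lower on its brightest probe set, but 0.18 (log2) higher on another.

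KLC4, a light chain of the kinesin motor, had the largest positive difference among genes above the floor on all 4 arrays with no opposing probe set. Its signals were 111 on each Sonazoid array, against 49.5 with ultrasound only and 39.0 in control. The difference was 2.53-fold (log2 1.34, SE 0.14; adjusted p = 0.037 with the signal-dependent error in limma), and 0.67 (log2) when its probe sets were averaged. APOL2, an apolipoprotein L family member, was 2.30-fold higher, at 63.6 and 66.7 against 24.8 and 32.5. The kinase HIPK4 was 2.18-fold higher, at 67.0 and 77.7 against 35.2 and 31.2. UBBP2, a ubiquitin B pseudogene whose probe set may share sequence with its parent, was 2.13-fold higher, nearly all of it in sonicated cells (2.06 against 0.12, log2). The probe set annotated to SNORA21, a small nucleolar RNA, was 2.08-fold higher. Whether its signal comes from the small RNA itself was not tested. ATG16L2, a paralog of the autophagy gene ATG16L1, was 1.99-fold higher. PPP1R26, ODF2L, the GTPase ARF1, the meiotic cohesin REC8, the ciliary chaperonin gene BBS10 and the noncoding RNA MIR3667HG were between 1.80-fold and 1.97-fold higher. GNAO1, a G protein alpha subunit, was at least 2.56-fold higher, and MIR1915HG at least 2.49-fold. IL27, a subunit of a heterodimeric cytokine, was at least 2.28-fold higher and MILIP at least 2.16-fold. Of these 4 genes, known as bounds only, 0 were called in either limma fit. ADM5, which was called higher with the signal-dependent error, read 78.4 and 65.2 with Sonazoid against 30.9 and a value below the floor, at least 2.63-fold.

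Gene groups that a phagocyte might use on lipid particles were examined next, each set against the 15.6% higher and 18.0% lower of all genes. Of 12 tested phosphatidylserine receptors and bridging factors 2 were higher and 4 lower without overlap, with a median difference of -0.13 (log2). MFGE8, a secreted bridge between phosphatidylserine and integrins, was at least 2.36-fold lower. It read 25.3 with Sonazoid plus ultrasound and fell below the floor with Sonazoid only, against 55.9 with ultrasound only and 59.9 in control. ITGAV, the alpha V integrin chain that binds MFGE8, was 1.49-fold higher, at 155 and 178 against 97.4 and 127. Of 13 Fc, complement and scavenger receptors 1 was higher and 2 lower. The scavenger receptor MARCO was at least 1.85-fold higher, with a dim signal of 63.7 and 52.3 against a value below the floor with ultrasound only and 40.8 in control. The integrin beta 2 chain ITGB2 was 1.12-fold lower, a sign that turned when probe sets were averaged.

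Of 16 tested genes of the phagocytosis and actin engine 0 were higher and 9 lower without overlap (median -0.10). CDC42, a GTPase that starts actin protrusions, read 4089 and 4004 with Sonazoid against 5550 and 4585 without it (1.25-fold lower). The actin regulators WASF2 and GSN were 1.28-fold and 1.23-fold lower. CDC42 was called with the signal-dependent error in limma (adjusted p = 0.049), but the mean of its probe sets differed by only 0.0024. The list median was -0.07 after quantile normalisation and turned positive with the values as deposited.

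Lipid handling was read from 3 lists. The fatty acid response list had 1 higher and 1 lower of 12 members (median 0.0068), and the LXR list 1 and 1 of 9 (median 0.08). Of 11 cholesterol genes 3 were higher and 3 lower. SREBF1, the regulator of lipid synthesis, was 1.40-fold lower, at 155 and 224 against 278 and 244, and CPT1A, which admits fatty acids to mitochondria, overlapped, at 670 and 583 against 935 and 646. MVD was 1.38-fold higher and MVK 1.26-fold lower, both enzymes of the mevalonate pathway.

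Lysosome and autophagy genes had 2 higher and 6 lower of 18 (median -0.08). MCOLN1, a lysosomal calcium channel, the autophagy receptor SQSTM1 and the protease CTSD were 1.25-fold, 1.16-fold and 1.14-fold lower. Membrane repair genes had 2 higher and 1 lower of 21 (median -0.05); ANXA5, which binds exposed phosphatidylserine, was 1.12-fold higher, at 1174 and 1061 against 1018 and 970. The ESCRT ATPase VPS4A was 1.16-fold higher.

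Immediate early genes that differed strongly with ultrasound are best read within each ultrasound state, where each value is a single array; FOS, KLF6 and JUN were picked after their values were seen. FOS read 398 with Sonazoid plus ultrasound against 400 with ultrasound only, and 84.8 with Sonazoid only against 84.9 in control. KLF6 read 2968 against 2852, and 394 against 397. JUN read 1378 against 1306, and 550 against 522. DUSP2, a phosphatase of MAP kinases, was lower in both states, at 150 against 196 in sonicated cells and 205 against 290 in unsonicated cells. NR4A1, an orphan nuclear receptor, was below the floor with Sonazoid plus ultrasound against 57.4 with ultrasound only, and read 40.2 with Sonazoid only against 33.7 in control. Its other probe sets above the floor, which were dimmer, were higher with Sonazoid without overlap (log2 0.61 and 0.71). In sonicated cells they were higher by 0.29 and 0.77, so the direction of NR4A1 depends on the probe set. JUNB differed, at 230 against 458 in sonicated cells and 237 against 224 in unsonicated cells. Of 24 immediate early genes 1, EGR1, was higher and 1, IER2, lower without overlap. Both were chosen for mention after their values were seen, and differed by 1.25-fold and 1.13-fold.

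The heat shock list had 3 higher and 5 lower of 18 (median 0.04). Its regulator HSF1 was 1.35-fold lower, at 278 and 241 against 316 and 383, and its co-chaperone DNAJB4 1.19-fold higher. Unfolded protein response genes had 5 higher and 3 lower of 20; ATF6, a sensor of misfolded protein, was 1.25-fold higher, HSP90B1 had a log2 difference of 0.26, and HYOU1 was 1.19-fold lower. The ATF4 list had 1 higher and 4 lower of 21, with ASNS 1.25-fold higher. The oxidative stress list had 2 and 5 of 19. SOD2, the mitochondrial superoxide dismutase, was 1.71-fold higher with a dim signal, at 79.7 and 73.5 against 54.3 and 36.9. Metallothioneins had 0 higher and 2 lower of 9 (median -0.11), and calcium genes 1 and 3 of 20, with CAMK1 1.29-fold lower.

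Inflammatory genes gave 0 higher and 1 lower of 16, with a median of -0.05. Their median difference with ultrasound was 0.42 (log2), against 0.0078 over all genes. Since a gene that differs more with ultrasound cannot separate the sides, the rule itself limits that count. Interferon-stimulated genes gave 1 and 4 of 19. USP18, the protease that removes ISG15 from proteins, was 1.79-fold lower, at 82.7 and 136 against 175 and 205. Apoptosis genes gave 3 and 4 of 25. The BH3-only gene BMF was 1.62-fold lower with a dim signal, and the caspase inhibitor XIAP was 1.28-fold higher, at 1383 and 1129 against 893 and 1074, with 4 of its 6 other probe sets opposite in sign.

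Growth and housekeeping genes were read from 6 lists. Of 14 ribosomal protein genes 0 were higher and 10 lower without overlap, and all 14 had a negative difference (median -0.17). RPS4X read 16741 and 16390 with Sonazoid against 19613 and 18670 without it. Hypoxia and glycolysis genes had 2 higher and 9 lower of 22, oxidative phosphorylation genes 2 and 8 of 22, and G1/S genes 4 and 10 of 24. HK2 and PFKL, enzymes early in glycolysis, were 1.28-fold and 1.24-fold lower, and the sign of HK2 turned when probe sets were averaged. Mitotic genes had 4 higher and 3 lower of 26, with log2 differences of 0.26 for CDK1 and -0.27 for CENPA. Splicing factors had 1 and 4 of 21. Of the list members named here with a direction, ITGB2, CDC42, WASF2, MVK, SQSTM1, DNAJB4, EGR1, CAMK1 and HK2 each had 1 or more other probe sets of opposite sign.

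The brightest genes were lower as a class after scaling by 1 factor per array. Of the 124 genes above the 99th percentile of signal 0 were higher and 86 lower (69.4%), with a median of -0.13. After quantile normalisation 22 were higher and 19 lower, with a median of 0.0016. The ribosomal protein median became -0.02. ACTB and GAPDH, at 18718 and 13577 or more with and without Sonazoid, differed by -0.17 and -0.18, and ACTB by 0.0073 after quantile normalisation. The size of the ribosomal protein difference and the sign of ACTB thus changed with the normalisation.

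**Figure D3:**
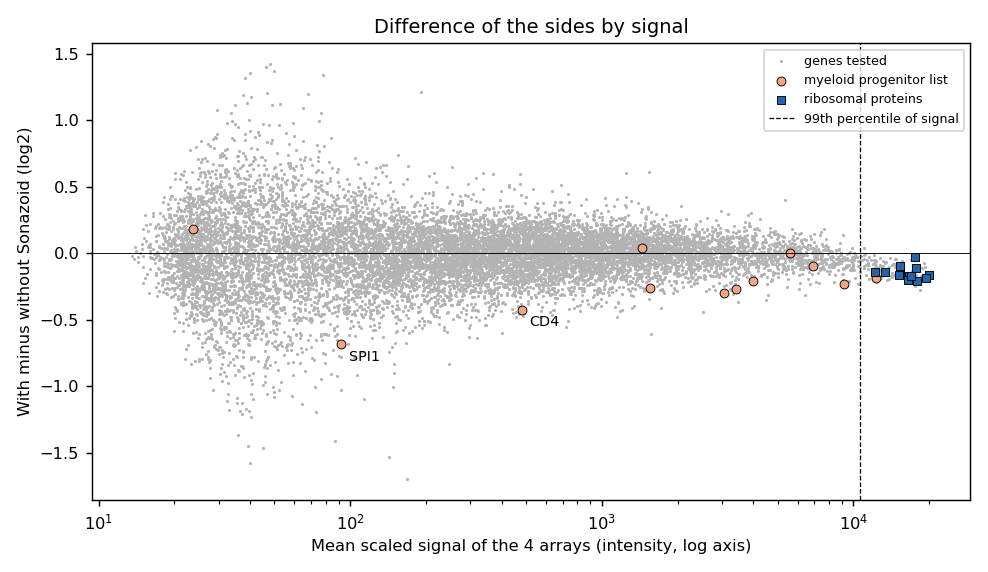
Difference of the sides (log2, with minus without Sonazoid) against mean scaled signal on a log axis, 1 point per gene, with ribosomal proteins as squares and the myeloid progenitor list as circles. The spread narrows as signal rises, and right of the 99th percentile the points sink below 0 (median -0.13).

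The median kept its sign under every setting that tested the list in 5 of 31 lists, among them the myeloid progenitor list and the ribosomal proteins. Of 12 myeloid progenitor members 0 were higher and 7 lower without overlap, with a median of -0.22 that lay between -0.23 and -0.08 under the 6 other settings. Among these members CTSG lay above the 99th percentile of signal and ELANE between the 97th and the 99th. In those ranges 69.4% and 27.5% of all genes tested were lower without overlap, and 15.3% and 12.1% after quantile normalisation. SPI1, the transcription factor PU.1, read 59.3 with Sonazoid plus ultrasound and 83.0 with Sonazoid only, against 106 with ultrasound only and 120 in control (1.61-fold lower, a dim signal). CD4, which myeloid cells also carry, read 398 and 423 against 590 and 514, 1.34-fold lower. HMGA1, a chromatin protein of undifferentiated cells, was 1.23-fold lower, at 2731 and 2733 against 3470 and 3274. Over the other settings that tested them, the difference of SPI1 ran from -0.69 to -0.25, that of CD4 from -0.43 to -0.21 and that of HMGA1 from -0.36 to -0.15. The additive limma fit gave them adjusted p-values of 0.72, 0.76 and 0.77. Monocyte differentiation genes had 2 higher and 3 lower of 11. The costimulatory ligand CD80 was at least 1.58-fold lower, below the floor on both Sonazoid arrays against 35.4 with ultrasound only and 40.0 in control. The formyl peptide receptor FPR1 was at least 1.99-fold higher, at 51.0 and 44.8 against 24.3 and a value below the floor. The endotoxin receptor TLR4 was 1.48-fold higher on its brightest probe set, but its 3 other probe sets had the opposite sign and the average differed by 0.02 (log2).

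**Figure D4:**
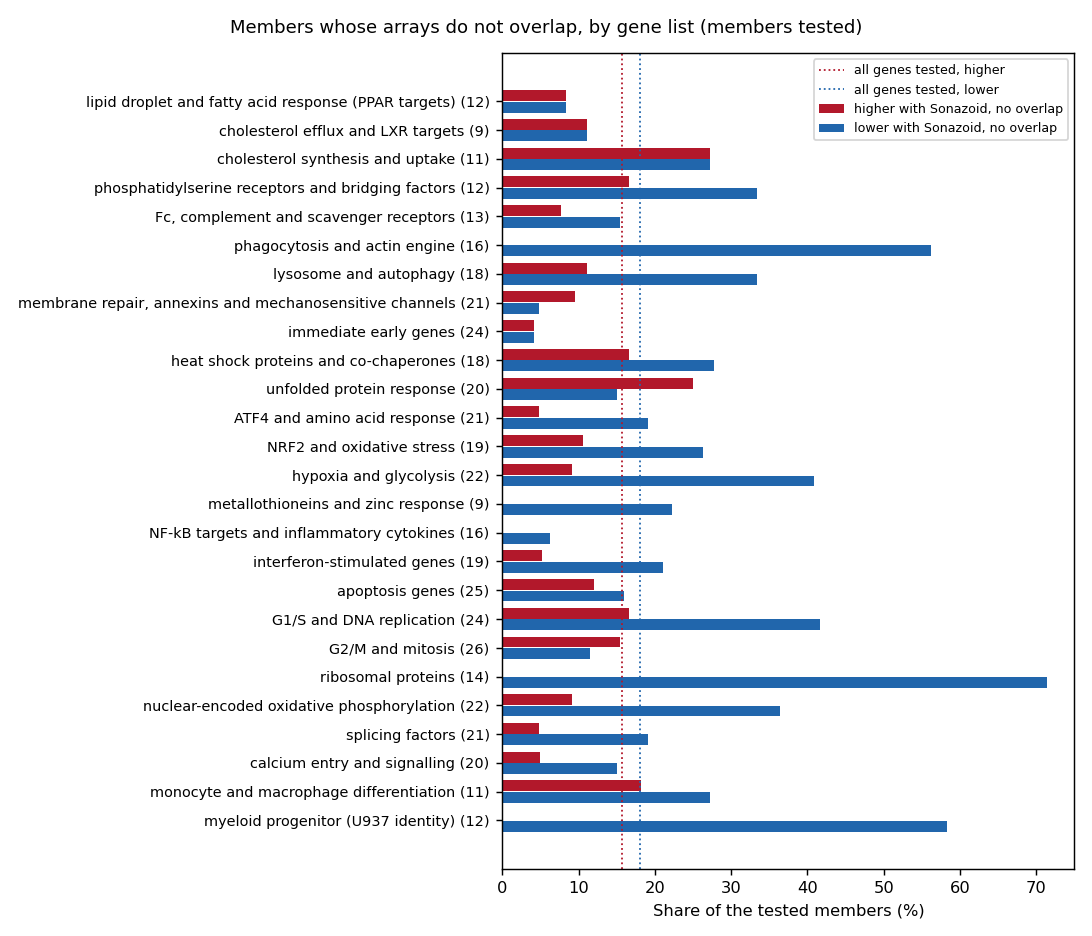
Share of the tested members of each gene list that were higher (red) or lower (blue) with Sonazoid without overlap of the sides, for lists with 9 or more tested members; dotted lines give the shares of all genes, 15.6% and 18.0%. Ribosomal proteins (71.4% lower) and the myeloid progenitor list (58.3% lower) extend farthest.

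Gene length went with the direction of the difference. Among the 3091 brightest genes, those higher without overlap had a median span in the genome of 37.4 kb and those lower 14.6 kb, with 25.1 kb for the rest (RefSeq, GRCh38.p14). Across these genes the log10 length and the difference had a Pearson r of 0.26, and r was 0.21 in sonicated and 0.21 in unsonicated cells, which share no array. Among genes under 10.1 kb 7.63% were higher and 30.9% lower, and among those over 50.5 kb 21.2% and 12.7%. The correlation was 0.22 without the genes above the 97th percentile of signal and 0.20 after quantile normalisation. It was -0.016 among the dimmest genes. For ultrasound the same brightest genes had an r of -0.20, from contrasts that use the same 4 arrays. This relation was noticed in the data, is a description across genes that share the arrays, and has no p. The ratio of 3' to 5' signal of the GAPDH control probe sets, a measure of RNA integrity and labelling, was 0.946 and 0.954 with Sonazoid against 1.01 and 0.987 without it, while that of ACTB overlapped; their part in the relation was not tested.

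**Figure D5:**
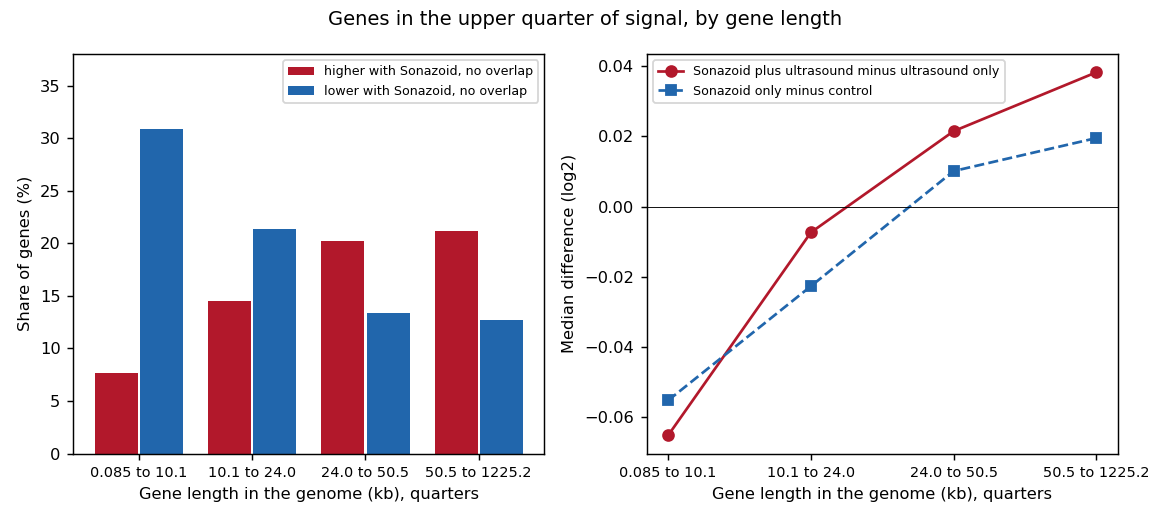
The 3091 brightest genes in 4 groups of gene length (kb). The left panel gives the share that was higher or lower with Sonazoid without overlap, and the right panel the median log2 difference in sonicated and in unsonicated cells; lower genes go from 30.9% of the shortest to 12.7% of the longest group.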

How the data were processed

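Per the labels' protocols, DNase-treated total RNA was labelled with the one-cycle 3' kit and hybridised to 1 array per treatment. The authors deposited 1 intensity per probe set on a linear scale (0.0486 to 21728), as the values show; the sources used here do not name the algorithm or scaling behind it. Trimmed means (2% removed at each end) differed 1.16-fold between arrays, and a single factor per array (0.923 to 1.07) removed this. Values were floored at 23.8 and log2 was taken. Platform symbols were matched to RefSeq GRCh38.p14 by Entrez identifier for 41037 of 41091 probe sets with 1 symbol; 1801 with several and 11721 with none were left out, as were 62 controls. Fits used limma 3.58.1 in R 4.3.3 with Benjamini-Hochberg adjustment over 12363 genes, after checks on simulated data. With 1 array per treatment, the 1 residual degree of freedom is the departure from additivity, moderated over genes, so p-values do not measure the spread between cultures, and the number of arrays limits the precision. Genes were named by rule, apart from those said to be picked later or taken from the trend fit: among genes without overlap, above the floor on all 4 arrays and with no opposite probe set, the 12 largest differences each way and the 10 largest among bright genes, then the 4 largest bounds each way and up to 3 members per list with the largest differences. Alternatives were the values as deposited, quantile normalisation, a stricter floor (95.3), no floor with 16 added, averaged probe sets and gene-specific probe sets, and for limma a trend of the error with signal and a fit without ultrasound. Members, lists and tests were chosen with earlier results of these data known.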

Additional observations from a re-analysis of the deposited data

Results flagged for a closer look

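For 3 named list members the Sonazoid difference pointed in opposite directions in the 2 ultrasound states, by at least 1.2-fold in each; the difference between the states was not tested. CHAC1, a glutathione-degrading enzyme, differed by -1.06 (log2) in sonicated cells and by 0.32 in unsonicated cells. STIM1, the calcium sensor of the endoplasmic reticulum, differed by -0.64 and 0.27, and the platelet factor PF4 by -0.33 and 0.35. CHAC1 and PF4 lay below the floor with Sonazoid plus ultrasound and in control, so all 4 of their values are lower limits on the size of the difference, set by the floor.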

How the results depend on the processing

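Without scaling, 4863 genes were higher and 729 lower without overlap, and 347 and 123 at 1.5-fold, of which 73.8% were higher, against 42.5% after scaling. With the stricter floor 15 and 18 genes stood at 1.5-fold, all of them among the 162 and 219, and the correlation between the ultrasound states was 0.16. Without a floor, where 19775 genes were tested, 3161 and 3524 genes did not overlap, 510 and 632 at 1.5-fold, and the correlation was 0.040. With averaged probe sets 86 and 123 stood at 1.5-fold. The limma count of 0 became 8 higher and 17 lower only with the trend of error with signal, where the prior degrees of freedom were 24.4, against 2.32; under the other settings the smallest adjusted p lay between 0.55 and 0.78. Signs turned with averaged probe sets for ITGB2 (0.030), CDC42 (0.0024), HK2 (0.21), E2F2 (0.17), GINS2 (-0.20) and U2AF1 (0.083), with gene-specific probe sets for SC5D (-0.0049), SQSTM1 (0.12), DNAJB4 (-0.020) and GINS2 (-0.25), and with quantile normalisation for ACTB (0.0073); the cause was not tested. Of the 52 genes named for size 27 were too dim to be tested with the stricter floor. With gene-specific probe sets 40 of the 52 were tested, and MAEA, YWHAE, POLR2E, MAPK3, APOL2 and LRRC43 were among those left out. In all, 50 of the 52 separated the sides under every setting in which they were tested, YPEL3 and PDRG1 not with the values as deposited. All 52 were chosen for large differences without overlap on these same arrays, so this count is no independent support for them. The log2 difference shrank by more than 1.5 times for 16 of the 52 with averaged probe sets (GNAO1 to 0.34, BCL6B to -0.29), for 10 with the values as deposited and for 4 of 25 with the stricter floor, which cuts the lower values by construction (KLC4 to 0.22, BBS10 to 0.17). List medians turned sign in 22 of 31 lists with the values as deposited and in 5 with quantile normalisation. The additive fit already takes the Sonazoid difference within each ultrasound state; without its ultrasound term the smallest adjusted p was 0.69. No pairing by replicate number was possible because the labels give none.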
